A study of Mus musculus with 27 samples.

Results

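Ribosome-bound and total mRNA of early neuroblasts (ENB) were compared in the adult mouse subventricular zone, the wall of the lateral ventricle where neurons are born throughout life. The comparison rests on 5 of the 27 libraries of a study of adult neurogenesis: 2 of ribosome-bound mRNA (ENB_ribo) and 3 of total mRNA (ENB_total), chosen by their titles in the table of raw counts. A further 3 libraries from the same tissue without the HA tag (SVZ_ctr) gave the background of the immunoprecipitation. Per the labels, the mice were males of 8 to 12 weeks on a C57BL/6 background, and the ENB libraries came from the DiCRY line. That line carries a tamoxifen-inducible Cre recombinase (CreER) under the Dcx promoter, an eYFP reporter and the RiboTag allele, from which recombined cells make Rpl22, a protein of the large ribosomal subunit, with an HA epitope. Tamoxifen was given at 200 mg per kg in 2 to 3 doses, per the labels' protocols.

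For ribosome-bound mRNA, anti-HA antibody was added to homogenate of the whole dissected tissue, with cycloheximide at 100 µg per mL and a wash in 300 mM KCl. For total mRNA, 200 to 500 eYFP-positive cells per replicate were sorted from 1 to 2 mice. The ENB_ribo and ENB_total libraries carry different animal numbers. Of the 3 controls, replicate 1 is from the TiCRY line, in which Tlx drives CreER, and the labels do not name the line of the other 2. Nothing in the labels says whether the control mice without HA were given the same tamoxifen schedule, beyond the general protocol. The p-values measure the spread between these libraries.

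Newborn neuroblasts of this zone migrate to the olfactory bulb, and they are marked by the microtubule protein Dcx and by Dlx transcription factors. The amount of protein made from an mRNA depends on how many of its copies carry ribosomes, and pulling down a tagged ribosomal protein recovers mRNA with at least one tagged ribosome, without its position or number. A well-known group under translational control is the TOP mRNAs, among them those of the ribosomal proteins, which start with a run of pyrimidines at the cap and are loaded or unloaded as a group through mTOR signalling and the protein Larp1.

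The libraries held 7924825 to 15994635 counts in ENB_total, 6621401 and 6830098 in ENB_ribo and 5960357 to 6625770 in SVZ_ctr. Spearman correlations of levels across genes were 0.936 to 0.961 among the ENB_total libraries and 0.942 between the ENB_ribo libraries. Between ENB_ribo and SVZ_ctr they were 0.912 to 0.955, so the immunoprecipitates resembled the control about as closely as each other. Against ENB_total they were 0.772 to 0.801. Levels are given as CPM, counts scaled to library size with TMM factors. Gm42418, a locus that overlaps ribosomal RNA genes, took 116900, 8785 and 59820 CPM in the ENB_total libraries and 3777 and 1811 CPM in the ENB_ribo libraries.

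Of 20683 genes tested, 3798 were higher in ribosome-bound than in total mRNA (18.4% of genes tested) and 2443 were lower (11.8%). Against the no-HA control, 122 genes were higher (0.590%) and 104 lower (0.503%). Calls are at an adjusted p under 0.05 in edgeR's quasi-likelihood test, and the comparisons share the ENB_ribo libraries. Only 79 of the 6241 genes called against total mRNA, or 1.27%, were also above the control. Of the genes higher than total mRNA, 3794 were not above the control (18.3% of genes tested) and 4 were (0.0193%). Of the genes lower than total mRNA, 75 were above the control (0.363%) and 2368 were not (11.4%). Here not above the control means not called, and in simulated counts the fit called 7% of 2-fold changes against the control. A further 43 genes were above the control and not called against total mRNA (0.208%), and 80 were below both total mRNA and the control (0.387%). The last set and the 43 genes were defined after the values had been seen. The map of both log2 fold changes shows this layout.

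**Figure D1:**
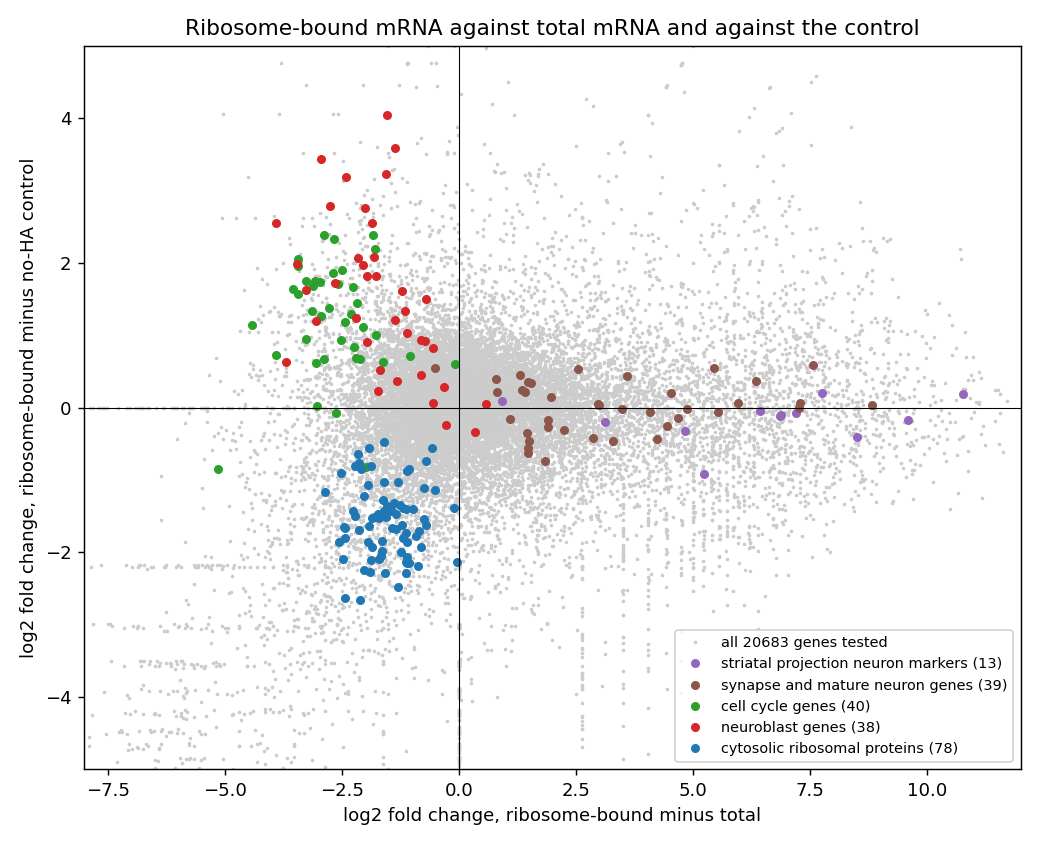
Log2 fold change of ribosome-bound mRNA against the no-HA control (vertical) plotted over that against total mRNA (horizontal), 1 point per gene tested, with 5 gene lists in colour. Neuroblast and cell cycle genes lie to the left and mostly above 0, ribosomal protein genes lie to the left and below 0, and synapse genes spread to the right along 0. A further 571 genes lie outside the axes, which end at -8 and 12 and at 5 on either side of 0.

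Markers of cells other than neuroblasts were among the genes higher than total mRNA. Drd1, the dopamine receptor of striatal projection neurons, had 0 CPM in each ENB_total library, 278.9 and 247.2 CPM in ENB_ribo and 302.1, 311.1 and 298 CPM in SVZ_ctr. Drd1 was thus found in every immunoprecipitate and in no library of sorted cells, and ENB_ribo lay just below the controls. Over 10 lists of markers of other cell types (striatal neurons, oligodendrocytes and their precursors, microglia, endothelial, mural, ependymal, choroid plexus, blood and mature astrocytes), 81 of 114 markers tested were higher than total mRNA, 2 were lower, and 0 were above or below the control. Over all genes 18.4% were higher than total mRNA and 11.8% lower, and with 0.590% above and 0.503% below the control, a count of 0 among 114 is near the background. The levels show more. Summed over its 13 members, the striatal list held 0.882 to 0.896% of counts in ENB_ribo, 0.858 to 1.02% in SVZ_ctr and 0.0168 to 0.037% in ENB_total. The oligodendrocyte list held 2.15 to 2.21% of counts in ENB_ribo, 1.9 to 2.44% in SVZ_ctr and 0.106 to 0.315% in ENB_total. Oligodendrocyte precursor markers went the other way: of 10 tested, 0 were higher and 2 lower than total mRNA. They held 0.0788 to 0.092% of counts in ENB_total, above the 0.0574 to 0.0645% of SVZ_ctr, so the sorted cells were not free of them.

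Neuronal and metabolic genes were also often higher than total mRNA. Among 39 genes of synapses and mature neurons, 36 exceeded total mRNA, with a median log2 difference of 2.86, and 0 were above or below the control, with a median of 0.03. Snap25, a component of the synaptic vesicle fusion machinery, had 107.2, 143.9 and 128.1 CPM in ENB_total, 1390 and 1464 CPM in ENB_ribo and 1671, 1551 and 1104 CPM in SVZ_ctr. Of 19 glycolysis genes, 15 were higher than total mRNA, and only Hk1 was above the control. These counts stand beside 18.4% higher than total mRNA, and 0.590% above and 0.503% below the control, over all genes tested. Over all genes tested the median log2 difference was 0.01 from total mRNA and -0.01 from the control. Under RLE scaling the median difference from total mRNA moved to 0.16. In such bulk libraries, fewer cells of a type and less RNA per cell cannot be told apart. The 58 markers of untagged cells gave a ratio of ENB_ribo to SVZ_ctr of 0.955, with 1.01 for replicate 1 and 0.947 for replicate 2.

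**Figure D2:**
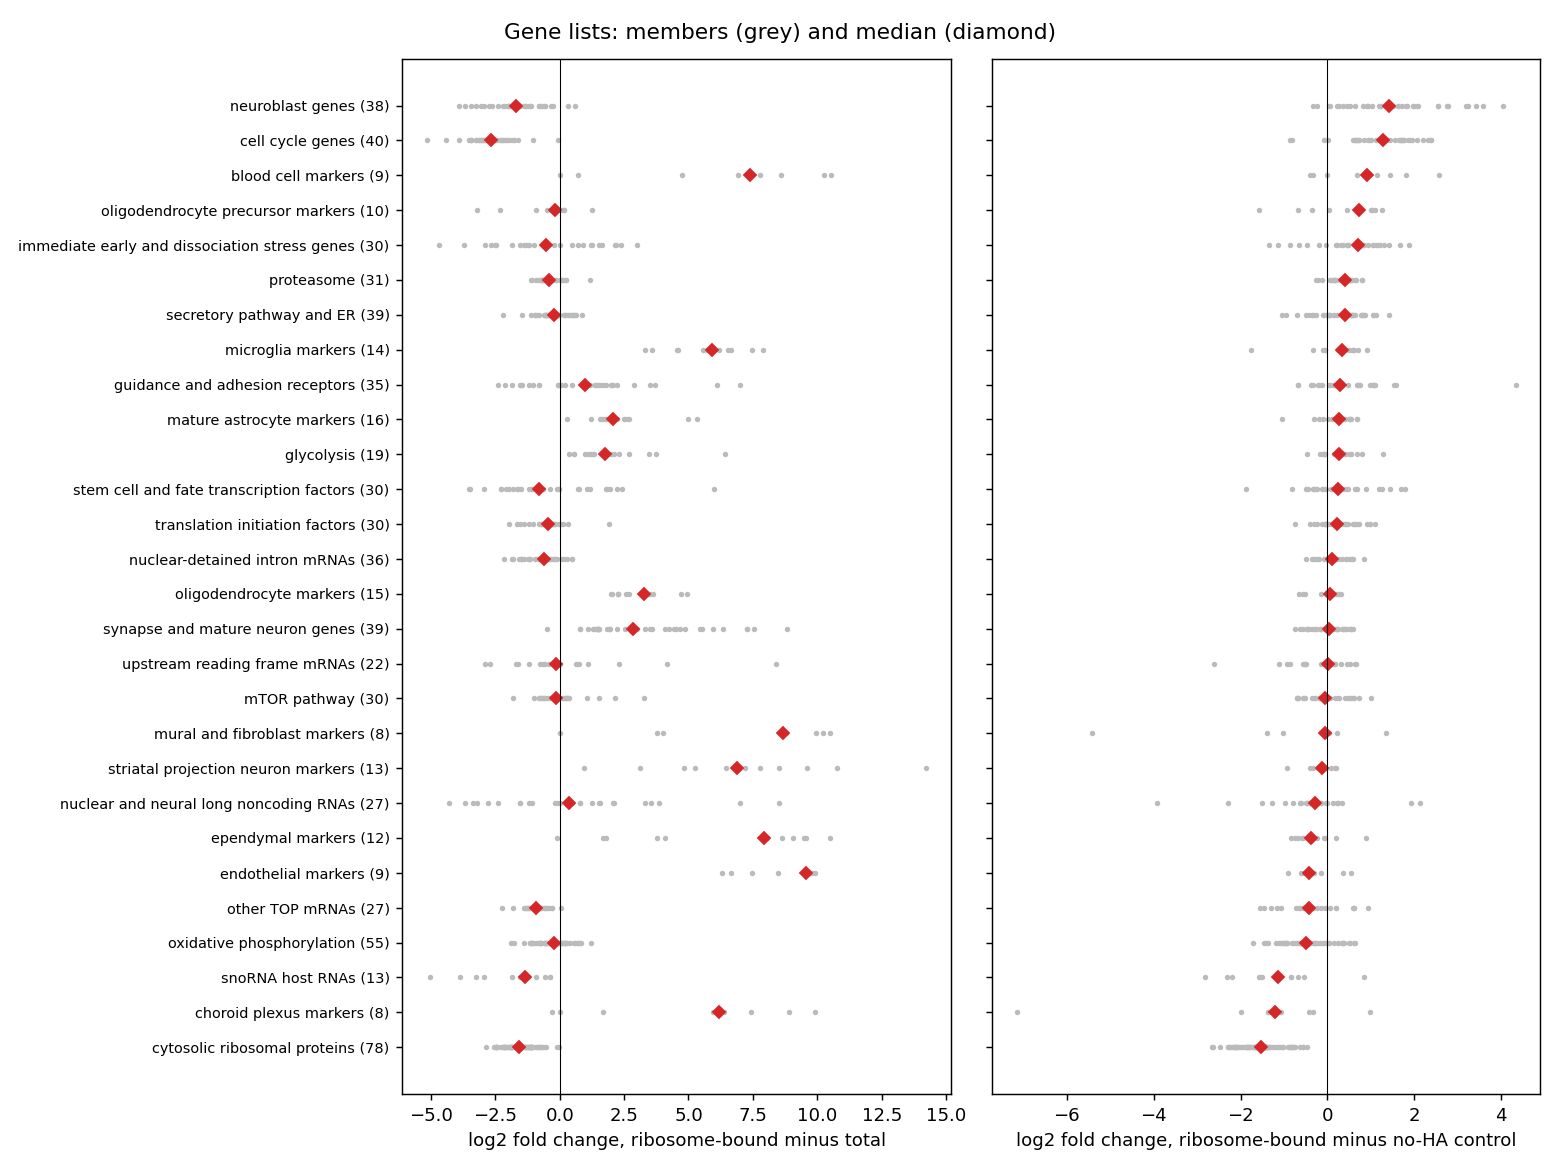
Log2 fold change of ribosome-bound mRNA against total mRNA (left) and against the no-HA control (right) for the members of the pathway, lineage, noncoding, stress and cell marker lists, with members in grey, the median as a red diamond, and the number tested in brackets. Of the lists plotted, cell cycle genes have the lowest median on the left, at -2.68, and endothelial markers the highest, where fitted values of genes at 0 in a total library are no measure of size. On the right neuroblast genes at 1.42 and ribosomal proteins at -1.53 stand at the ends.

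Neuroblast genes were recovered above the control, and at levels below those of the sorted cells. Of 38 neuroblast genes, 25 were lower than total mRNA and 0 higher, with a median log2 difference of -1.70. Against the control 19 were higher and 0 lower, with a median of 1.42. Both counts are beside backgrounds of 11.8% and 0.590% over all genes tested. Of the 19 genes above the control, 17 were lower than total mRNA and 2 were not called against it. Without ENB_ribo replicate 2, 0 genes of any kind were called above the control. Without ENB_ribo replicate 1, 27 of the 75 genes that were below total mRNA and above the control kept both calls, and without SVZ_ctr replicate 3, 24 did. In all 75 genes both ENB_ribo libraries lay above the 3 controls and below the 3 ENB_total libraries, as the calls nearly require.

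Dcx (ENSMUSG00000031285, chrX:143855842-143933396, GRCm38), the microtubule-binding protein whose promoter drives CreER here, had 1053, 1512 and 1111 CPM in ENB_total, 176.7 and 436.8 CPM in ENB_ribo and 33.02, 57.57 and 44.96 CPM in SVZ_ctr. The 3 groups were ordered without overlap, and ENB_ribo replicate 1 was the lower of its pair. The log2 difference of Dcx was -2.00 ± 0.37 (SE) from total mRNA (adjusted p = 0.000315) and 2.76 ± 0.35 from the control (adjusted p = 0.000467). Dlx2 (ENSMUSG00000023391, chr2:71543408-71546754), a homeobox factor of GABAergic neuron fate, had 1134, 1409 and 1174 CPM in ENB_total, 53.79 and 112.5 CPM in ENB_ribo and 7.213, 13.23 and 21.86 CPM in SVZ_ctr. Its log2 difference from total mRNA, -3.90 ± 0.48 (adjusted p = 2.69e-06), was the lowest of the 75 genes. Its partner Dlx1 had 1443, 1624 and 1458 CPM in ENB_total and 92.54 and 358.8 CPM in ENB_ribo, against 27.89 to 40.73 CPM in SVZ_ctr.

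Next in size after Dlx2 came Cd24a, a surface glycoprotein used to sort neuroblasts, with 1585, 1527 and 1496 CPM in ENB_total, 91.55 and 190.1 CPM in ENB_ribo and 25, 56.07 and 25.73 CPM in SVZ_ctr. The long noncoding RNA Dlx6os1, transcribed at the Dlx5 and Dlx6 locus, had 1517, 1301 and 1521 CPM in ENB_total, 94.53 and 183.3 CPM in ENB_ribo and 19.55, 46.75 and 28.92 CPM in SVZ_ctr. For these RNAs the log2 differences from total mRNA were -3.45 ± 0.49 for Cd24a (adjusted p = 1.72e-05) and -3.38 ± 0.43 for Dlx6os1 (adjusted p = 4.2e-06). Mfap2 (-3.23), a microfibril protein, the chromatin protein Hmgb2 (-3.14), Igfbpl1 (-2.93), Traf4 (-2.82) and Ddah2 (-2.80) completed the 8 largest differences of this set. Dlx6os1 and the opposite-strand Dlx1as, also among the 75, overlap neighbouring Dlx genes, and the counting is not stated to use strand.

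Several genes of the cytoskeleton were among the 75, whose median log2 difference from total mRNA was -1.81. Tubb3, the neuronal beta-tubulin, had 2246, 2021 and 1937 CPM in ENB_total, 402 and 660.3 CPM in ENB_ribo and 180.5, 153.2 and 119.4 CPM in SVZ_ctr, with log2 differences of -1.96 ± 0.42 from total mRNA (adjusted p = 0.0013) and 1.81 ± 0.39 from the control (adjusted p = 0.0165). Without ENB_ribo replicate 1, the adjusted p of Tubb3 against total mRNA was 0.0508. Stmn1 (-2.06), Tubb2b (-2.16), Tuba1a (-1.76) and Crmp1 (-1.21) were also lower than total mRNA and above the control. Tubulin genes are near-identical in sequence, so reads can be shared among them. The smallest difference of the 75 genes was in Nedd4, a ubiquitin ligase, at -0.71 ± 0.26, with 1154, 1180 and 1219 CPM in ENB_total, 622.7 and 827.2 CPM in ENB_ribo and 246.3 to 291.9 CPM in SVZ_ctr.

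**Figure D3:**
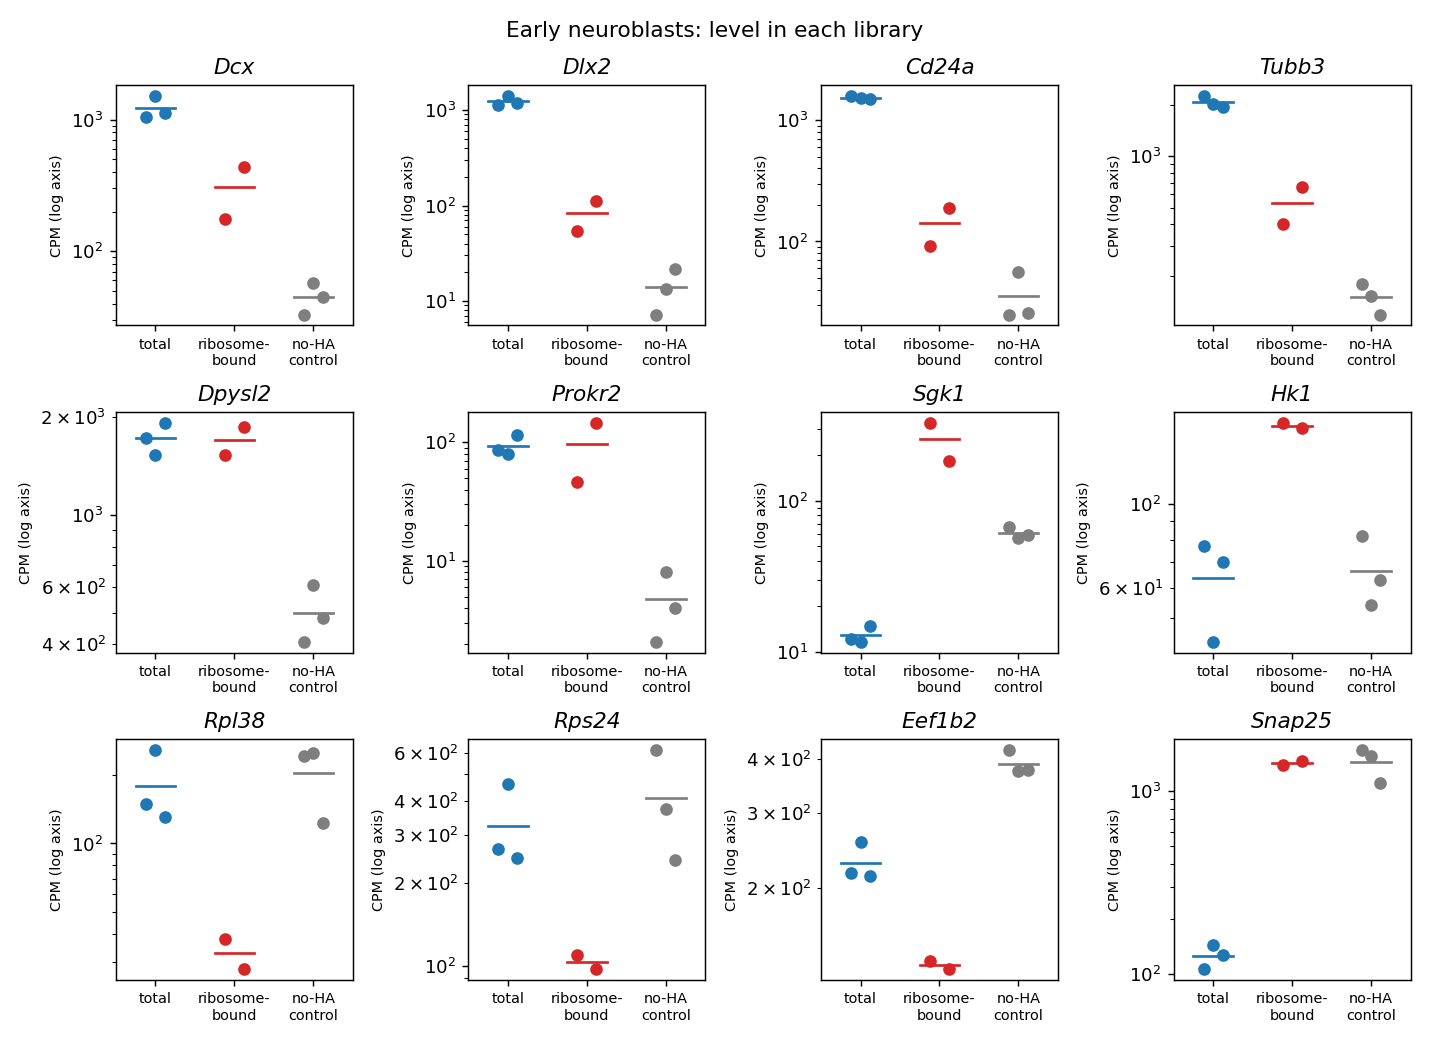
Level in each library (CPM, log axis) of 12 genes in total mRNA, ribosome-bound mRNA and the no-HA control, with 1 point per library and a bar at the group mean. Dcx, Dlx2, Cd24a and Tubb3 step down from total mRNA to the control, Dpysl2 and Prokr2 do not differ by call between total and ribosome-bound mRNA, Sgk1 and Hk1 are highest in ribosome-bound mRNA, Rpl38, Rps24 and Eef1b2 are lowest there, and Snap25 is level with the control.

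Because most of an immunoprecipitate matched the control, a scaled control level was subtracted from each ENB_ribo replicate. The scale was 1.01 for replicate 1 and 0.947 for replicate 2. The remainder was given as a percentage of the mean ENB_total level. This net share is a ratio of scaled counts, not a fraction of molecules. Over the 121 genes above the control with a value, its median was 17.5% in ENB_ribo replicate 1 and 36.2% in replicate 2, and it was higher in replicate 2 for 112 genes. The neuroblast list had medians of 9.34% and 23.8%, with replicate 2 higher in 36 of 38 genes. So the replicates differed in how much neuroblast mRNA they held above background, and values are best read within a replicate.

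Within each replicate, Dlx2 had the lowest net share of the 19 neuroblast genes above the control, and microtubule genes and transcription factors both stood among the highest. Dlx2 had net shares of 3.2% and 8%, Cd24a 3.63% and 10.2%, and Hmgb2 4.72% and 9.19%. Dcx stood at 10.7% and 32.2%, Tubb3 at 12.1% and 25%, and Sox11, a transcription factor of immature neurons, at 11.2% and 35.1%. Sox4, its relative, had 17.7% and 53.6%, Ncam1, the adhesion molecule that carries polysialic acid on neuroblasts, 19.3% and 36.6%, and Map1b, a microtubule-associated protein, 35.2% and 45.6%. Map1b had the highest share of the list in replicate 1, and Sox4 in replicate 2. The order of neighbours such as Dcx and Tubb3 differed between the replicates. Genes with a high control level had unstable shares, as in Meis2 at -25.5% and -0.373%.

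**Figure D4:**
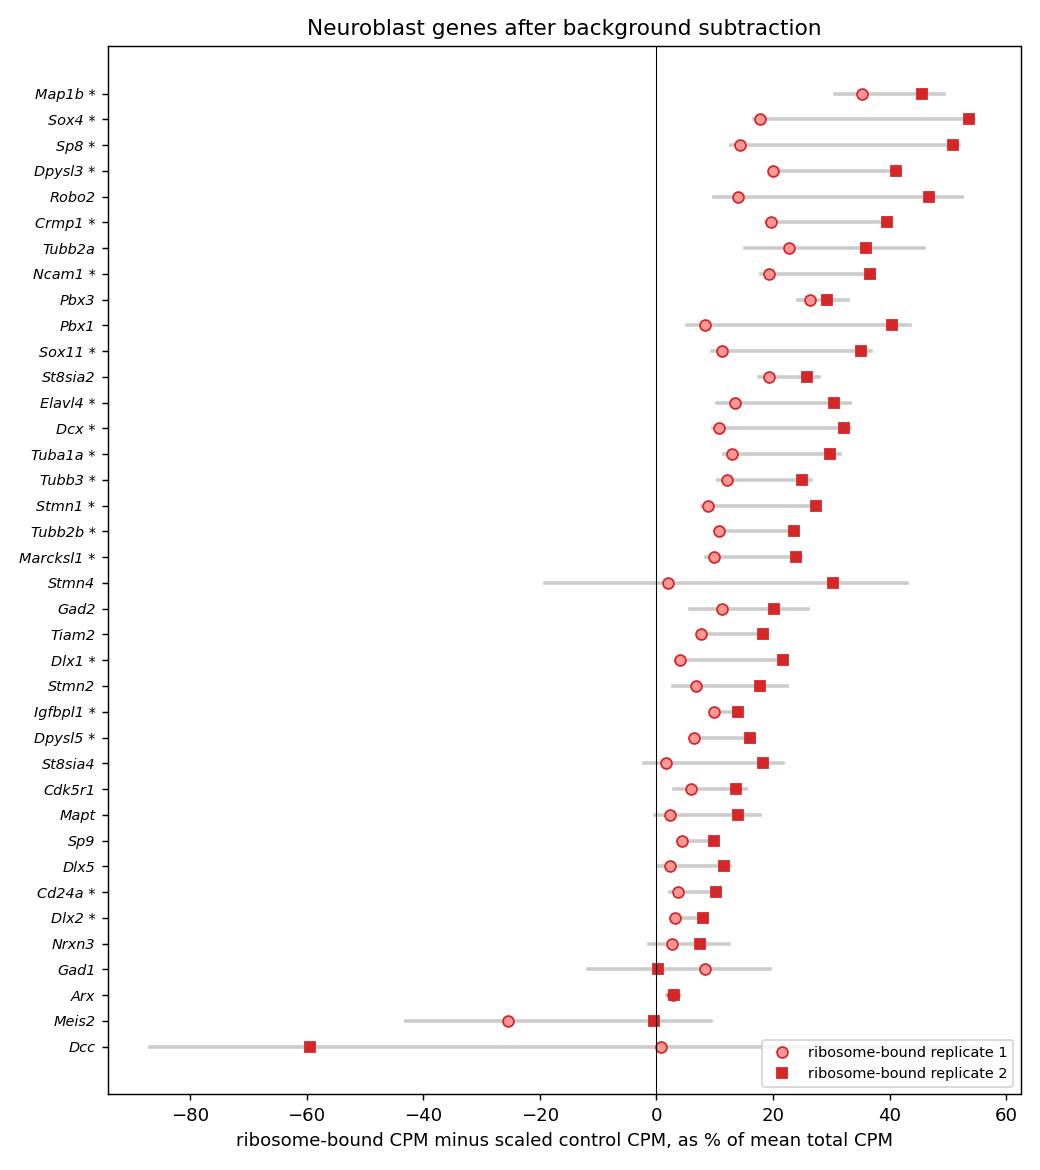
Net share of the total level (ribosome-bound CPM minus the scaled control CPM, as % of the mean total CPM) for 38 neuroblast genes, with a circle for replicate 1 and a square for replicate 2, a grey line from the lowest to the highest value over both replicates and single controls, and a star for genes above the control. Map1b is at the top with 35.2% and 45.6%, Dlx2 is near the bottom with 3.2% and 8%, and replicate 2 lies to the right in 36 of 38 genes.

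Cell cycle genes were mostly below total mRNA. Of 40 tested, 34 were lower and 0 higher, with a median log2 difference of -2.68, and 3 were above the control: Ccnd2, Hmgb2 and Mcm6. Over all genes tested, 11.8% were lower and 18.4% higher than total mRNA, and 0.590% were above the control. Ccnd2, a cyclin of the G1 phase, had 3799, 4983 and 4081 CPM in ENB_total, 434.2 and 901.9 CPM in ENB_ribo and 167.3, 225.8 and 159.1 CPM in SVZ_ctr. Mki67, the proliferation marker, had 357.5, 230.1 and 411.7 CPM in ENB_total and 4.116 and 14.77 CPM in ENB_ribo, within or below the range of 9.457 to 23.15 CPM in SVZ_ctr. Mki67 was thus at background in the immunoprecipitate while it was high in the sorted cells. The median difference of the cell cycle list from the control was 1.28, and the net share had medians of 6.86% and 10.6%, and 3 of 40 were at or below the scaled control. Mcm6, a subunit of the replicative helicase, had a net share of 16.7% and 29%.

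Among 30 transcription factors of stem cells and fate choice, 11 were lower than total mRNA, 4 were higher, and 2 were above the control, Nfib and Tcf4. The backgrounds were 11.8%, 18.4% and 0.590%, and the median difference from total mRNA was -0.79. Nfib, a nuclear factor I protein, had 1555, 1497 and 1761 CPM in ENB_total, 237.6 and 424.7 CPM in ENB_ribo and 73.41, 121.4 and 91.04 CPM in SVZ_ctr. Sox2, a factor of neural progenitors, had 61.26, 76.27 and 49.11 CPM in ENB_total, 16.46 and 12.6 CPM in ENB_ribo and 14.91, 20.14 and 16.19 CPM in SVZ_ctr. Pax6, which specifies dopaminergic bulb neurons, had 140.1, 128.8 and 125 CPM in ENB_total, 18.45 and 15.93 CPM in ENB_ribo and 10.65 to 27.36 CPM in SVZ_ctr. Sox2 and Pax6 were lower than total mRNA, with log2 differences of -2.10 ± 0.38 and -2.93 ± 0.62, and overlapped the control, so no ribosome association could be read for them at this background.

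For the 43 genes above the control and not called against total mRNA, log2 differences from total mRNA ran from -1.74 to 0.71 with a median of -0.47, and 22 lay within 0.5 of 0. The genes named here were chosen after their values were seen. Dpysl2, a collapsin response mediator of axon growth, had 1721, 1536 and 1920 CPM in ENB_total, 1527 and 1872 CPM in ENB_ribo and 407.6, 608.3 and 480.9 CPM in SVZ_ctr. Its log2 difference from total mRNA was -0.02 ± 0.37 (adjusted p = 0.992) and from the control 1.77 ± 0.36 (adjusted p = 0.0121), with net shares of 59.4% and 81.1%. Its relatives Crmp1 (-1.21), Dpysl3 (-1.56) and Dpysl5 (-2.64) were called lower than total mRNA, and the difference between them and Dpysl2 was not tested. Prokr2, the receptor that guides neuroblasts to the olfactory bulb, had 85.64, 79.16 and 115.7 CPM in ENB_total, 46.41 and 145.7 CPM in ENB_ribo and 2.084, 8.117 and 4.012 CPM in SVZ_ctr. Its replicates straddled the total level, with net shares of 44.5% and 151%.

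Other members of these 43 were the transcription factors Mycn (-0.97), Mycl (-0.93), Sp8 (-1.53) and Zbtb16 (-0.01), the adhesion and Wnt signalling protein Ctnnb1 (-0.39), the citrate-cleaving enzyme Acly (-0.29) and the microtubule polymerase Ckap5 (0.27). Parts of the secretory pathway were also there: Stt3a (-0.56), Tmed2 (-0.56) and Pdia4 (-0.47). A lack of call does not show equal levels: the SE was 0.59 for Sp8 (adjusted p = 0.0522). Esr1 had 93.51, 126.1 and 100.3 CPM in ENB_total and 22 and 41.85 CPM in ENB_ribo, against 0, 6.614 and 1.245 CPM in SVZ_ctr. CreER contains a part of the estrogen receptor, and whether its reads were counted to Esr1 was not tested.

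The 4 genes above both total mRNA and the control were Sgk1, Hectd4, Hk1 and Tsc22d3. Sgk1, a kinase induced by glucocorticoids, had 12.23, 11.67 and 14.89 CPM in ENB_total, 326.6 and 184.3 CPM in ENB_ribo and 67.32, 56.52 and 59.49 CPM in SVZ_ctr. Every immunoprecipitate, with the tag or without, exceeded the sorted cells for Sgk1, and ENB_ribo lay above the controls. The log2 differences of Sgk1 were 4.30 ± 0.44 from total mRNA (adjusted p = 2.46e-07) and 2.06 ± 0.41 from the control (adjusted p = 0.0102). Tsc22d3, the glucocorticoid-induced leucine zipper protein, had 80.59, 71.82 and 86.46 CPM in ENB_total, 122.5 and 142.9 CPM in ENB_ribo and 76.13, 54.71 and 59.63 CPM in SVZ_ctr, with differences of 0.74 ± 0.25 and 1.06 ± 0.25. Hk1, the hexokinase that opens glycolysis, had 77.51, 43.31 and 70.22 CPM in ENB_total, 162.8 and 157.8 CPM in ENB_ribo and 82.06, 53.96 and 62.95 CPM in SVZ_ctr.

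Hectd4, which codes for a very large ubiquitin ligase, had 221.8, 169.5 and 156.8 CPM in ENB_total, 3421 and 2740 CPM in ENB_ribo and 480.7, 735.6 and 1403 CPM in SVZ_ctr, and its controls differed among themselves more than those of the other 3 genes. Its log2 difference from the control was 1.82 ± 0.44 (adjusted p = 0.0421). The 4 calls were fragile: without SVZ_ctr replicate 2, 0 of them remained, without SVZ_ctr replicate 3, 1 did, and without either ENB_ribo library, 0 did. For Sgk1 the adjusted p against the control was then 0.0518 without SVZ_ctr replicate 2 and 0.249 without ENB_ribo replicate 1.

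Ribosomal protein mRNAs stood below both references. Of 78 tested, 73 were lower than total mRNA and 0 higher, with a median log2 difference of -1.59, and 59 were below the control and 0 above, with a median of -1.53. The backgrounds over all genes were 11.8% lower than total mRNA and 0.503% below the control. Of the 80 genes below both, 55 were ribosomal protein genes. In 74 of the 78, both ENB_ribo libraries lay below all 3 ENB_total and all 3 SVZ_ctr libraries. Together the 78 genes held 1.00 and 1.06% of counts in ENB_ribo, 2.15, 3.36 and 2.03% in ENB_total and 4.01, 2.82 and 2.44% in SVZ_ctr. All 78 were at or below the scaled control in the mean, so a net share could not be formed. Markers of untagged cells stood at 0.955 of the control in the same ENB_ribo libraries. Whether the lower level of ribosomal protein mRNA lay in neuroblast mRNA or in background mRNA was not tested.

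The values moved within the reference groups too. SVZ_ctr replicate 1 was the highest control for 75 of the 78 genes, and ENB_total replicate 2 was the highest total library for 76. The ENB_ribo replicates, in contrast, had medians of -1.50 and -1.48 from total mRNA, and replicate 2 was the higher in 40 of 78. Against SVZ_ctr replicate 1 alone, the only control that shares the second sequencing index with an ENB_ribo library (replicate 2), the median of replicate 2 was -1.99 and 78 of 78 were lower. Both ENB_ribo libraries share no second index with ENB_total, so that comparison cannot be told apart from index, sorting and animals. Without ENB_ribo replicate 2, 0 ribosomal protein genes were called below both references, and without replicate 1, 11 were. Without SVZ_ctr replicate 1, 34 were, and in a fit of only the 8 libraries 23 were, against 55 with all, while the medians of the single replicates stood as above.

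The sequences at the starts of ribosomal protein genes are shown because the pyrimidine run defines TOP mRNAs. Each window runs from 10 bases before the RefSeq start (GRCm38.p6) to 20 bases from it, on the strand of the gene, and the longest run of C and T that touches the 5 bases on either side of the start is in capitals. The 6 ribosomal protein windows are of genes below both references with a run of at least 7, in order of adjusted p against the control. Other such genes with a lower adjusted p may have been left out. Some genes have several starts, and the Rpl38 window is at a start inside the gene. The windows were thus picked for having a run, and most ribosomal protein starts have none. The last pair are neuroblast genes chosen for the results above, without a run of at least 7, and have no capitals.
Rpl14, chr9:120571507-120571536, plus strand: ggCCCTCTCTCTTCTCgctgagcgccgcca
Fau, chr19:6057937-6057966, plus strand: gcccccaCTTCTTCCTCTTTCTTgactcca
Rpl38, chr11:114668570-114668599, plus strand: aagcctcgTTCTTTCCCCgttctcttcggt
Rps27, chr3:90213629-90213658, minus strand: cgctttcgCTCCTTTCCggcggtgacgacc
Rps26, chr10:128626487-128626516, minus strand: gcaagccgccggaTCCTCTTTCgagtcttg
Rps24, chr14:24490668-24490697, plus strand: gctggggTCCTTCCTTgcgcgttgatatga
Dlx2, chr2:71546735-71546764, minus strand: gagcctgcccggcagacaatcgtaaagctg
Dcx, chrX:143933200-143933229, minus strand: gctaagcttcagttacaggggagaagctgg
A run of at least 7 pyrimidines was found at 27 of 68 starts of ribosomal protein genes (39.7%), for the 58 of 78 symbols with an entry in the RefSeq table. Over all 32851 starts in that table, 13.5% had one. Among ribosomal protein genes below both references the share was 41.9%, among the other genes below both 22.7%, among neuroblast genes 19.4% (7 of 36 starts), and among the genes below total mRNA and above the control 12.5%. The match is of letters only, on the gene's strand, and annotated starts can miss the cap site by several bases.

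Rpl38, of the large subunit, had 149.6, 257.1 and 130.9 CPM in ENB_total, 38.04 and 28.09 CPM in ENB_ribo and 241.4, 249.1 and 122.9 CPM in SVZ_ctr. Its log2 differences, -2.44 ± 0.44 from total mRNA and -2.63 ± 0.44 from the control, were among the lowest of the family in both. Rps24, of the small subunit, had 267.5, 459.8 and 246.2 CPM in ENB_total, 109.7 and 97.3 CPM in ENB_ribo and 612, 373.1 and 242.4 CPM in SVZ_ctr. For Rps24 the log2 differences were -1.65 ± 0.36 (adjusted p = 0.00137) and -1.98 ± 0.36 (adjusted p = 0.00473). Rpl31 and Rps3 were exceptions on the side of total mRNA. Rpl31 had 177.4, 252.5 and 139.2 CPM in ENB_total and 192.6 and 175.5 CPM in ENB_ribo, against 534.7 to 1179 CPM in SVZ_ctr. Rps3 had 511.8 to 521 CPM in ENB_total, 449.4 and 519.8 CPM in ENB_ribo and 941.7 to 1798 CPM in SVZ_ctr.

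Rplp0, the stalk protein, was lower than total mRNA by -1.92 ± 0.24 and not called against the control (-0.56 ± 0.22, adjusted p = 0.372). Rpl22, the tagged protein itself, had 110.8, 128 and 94.62 CPM in ENB_total, 32.65 and 19.98 CPM in ENB_ribo and 42.15, 53.06 and 47.32 CPM in SVZ_ctr. The recombined allele replaces the last exon of Rpl22, and its effect on these counts was not tested. Its paralog Rpl22l1 had -1.04 ± 0.31 from total mRNA (adjusted p = 0.0154) and -1.21 ± 0.32 from the control (adjusted p = 0.0677). Ribosomal protein genes have many processed pseudogenes, so reads can be split among copies. Among the 80 genes, Gm10036 and Gm9843 are annotated as pseudogenes, and their parent genes were not looked up.

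Other TOP mRNAs followed in part. Of 27 tested, 17 were lower than total mRNA, with a median of -0.91, beside 11.8% of all genes tested. Below the control were 4, with a median of -0.42, beside 0.503% of all genes tested. Eef1b2, a subunit of the elongation factor that recharges Eef1a1, had 216.7, 256.2 and 212.9 CPM in ENB_total, 135 and 129.4 CPM in ENB_ribo and 420.1, 374.9 and 376.6 CPM in SVZ_ctr. Its log2 differences were -0.79 ± 0.22 and -1.56 ± 0.23, with both ENB_ribo libraries below all others. Eif3f, of the initiation factor 3 complex, and Cox7c were also below both. Eef1a1 itself had 3181, 3323 and 2939 CPM in ENB_total, 1608 and 1549 CPM in ENB_ribo and 2738, 2355 and 2215 CPM in SVZ_ctr, a call against total mRNA (-0.99 ± 0.22) and not against the control (adjusted p = 0.267). Pfdn5 was the reverse, below the control (-1.46 ± 0.26) and not called against total mRNA. Eif4a2 (0.06) and Pabpc1 (-0.30) were not called in either comparison.

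Many host transcripts of small nucleolar RNAs also start with pyrimidines and code for no protein. Of 13 tested, 7 were lower than total mRNA, with a median of -1.34, and 2, Gas5 and Snhg8, were below the control. Over all genes tested, 11.8% were lower than total mRNA and 0.503% below the control. Gas5 had 303.7, 359.8 and 259.7 CPM in ENB_total, 135 and 114.1 CPM in ENB_ribo and 397.7, 360.6 and 322.6 CPM in SVZ_ctr. Beyond the ribosomal proteins, 25 genes were below both references. They included, chosen after their values were seen, Cox7c, Ndufa2 and Atp5j2 of the respiratory chain and ATP synthase, Timm8b and Tomm7 of mitochondrial import, Snrpg and Snrpf of the spliceosome, and Polr2j of RNA polymerase II, but also Ext1, an enzyme of heparan sulfate synthesis, and the secreted protein Ntn4. Tlcd1, also among the 25, overlaps the ribosomal protein gene Rpl23a on chromosome 11. Its levels were similar, with 116.8 and 123.2 CPM in ENB_ribo against 108.6 and 115.7 CPM for Rpl23a. Whether Rpl23a reads were counted to Tlcd1 was not tested. Over the oxidative phosphorylation list, beside backgrounds of 11.8%, 18.4% and 0.503%, 14 of 55 were lower than total mRNA and 4 higher, with 6 below the control and a median of -0.50 against it.

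Transcript length moved with both comparisons. The length of each gene relative to the median gene was taken as the ratio of deposited expected counts to TPM. The shortest eighth of genes had median log2 differences of -0.31 from total mRNA and -0.45 from the control, and the longest eighth had 0.29 and 0.10. Ribosomal protein genes had a median relative length of 0.215. The 3055 other genes within the central part of their range of length had medians of -0.16 from total mRNA and -0.30 from the control. Among the 173 of those that also reached the control level of all but the lowest ribosomal protein genes, the medians were -0.16 and -0.35, 9.25% were below the control and 6 genes (3.47%) were below both references, against 55 of 78 ribosomal protein genes (70.5%). Across 18401 genes, Spearman's rho of length with the difference was 0.0909 for total mRNA and 0.178 for the control, as a description over genes that share libraries. After the loess trend on length was subtracted, the median of cytosolic ribosomal proteins, ribosome-bound minus control, was -0.94, and the median of cytosolic ribosomal proteins, ribosome-bound minus total, was -1.58. The part of RNA integrity was not tested.

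**Figure D5:**
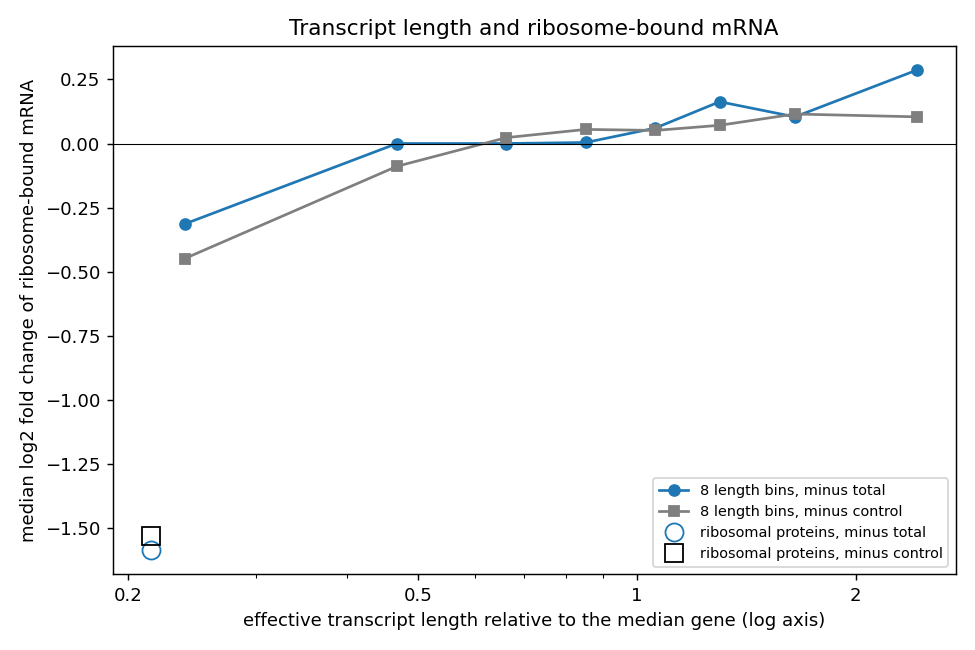
Median log2 fold change of ribosome-bound mRNA against total mRNA (blue) and against the no-HA control (grey) in 8 equal bins of genes by effective transcript length relative to the median gene (log axis), with the medians of the 78 ribosomal protein genes as open symbols. The shortest bin lies at -0.31 and -0.45, and the ribosomal protein genes, at a similar length, lie at -1.59 and -1.53.

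Counts for other pathways are set beside those over all genes, of which 18.4% were higher and 11.8% lower than total mRNA. Against the control 0.590% were above and 0.503% below, so a count of 0 there says little about a list of this size. Of 30 mTOR pathway genes, 4 were higher and 2 lower than total mRNA, and 0 were above or below the control. Akt1s1, the mTORC1 inhibitor PRAS40, was lower than total mRNA at -1.82 ± 0.38 and level with the control at 0.04 ± 0.36. Of 30 translation initiation factors, 5 were lower than total mRNA and 1 was higher, among them Eif4a1, the helicase, at -1.53 ± 0.31, and Eif4g2 at -1.40 ± 0.33, with 0 above or below the control. Of 22 mRNAs with regulatory upstream reading frames, 4 were lower and 3 higher. Atf4, whose translation is governed by such frames, had 443.7, 358.5 and 375.8 CPM in ENB_total, 51.24 and 53.43 CPM in ENB_ribo and 70.52, 79.81 and 74.16 CPM in SVZ_ctr. The Atf4 level in ENB_ribo lay below the lowest control, without passing the test (adjusted p = 0.499).

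Of 31 proteasome genes, 7 were lower and 1 higher than total mRNA, to be read beside the same shares over all genes. The 39 secretory pathway genes had 6 lower, 0 higher and 3 above the control. Of 36 mRNAs known to retain introns in the nucleus, 13 were lower than total mRNA and 0 higher, with a median of -0.61, and 0 were above or below the control. Srsf3, a splicing factor of that list, had 884.3, 676.8 and 779.8 CPM in ENB_total, 154.9 and 191.1 CPM in ENB_ribo and 121.2 to 175.1 CPM in SVZ_ctr. Among 35 guidance and adhesion receptors, 14 were higher and 8 lower than total mRNA, and Cdh2 and Prokr2 were above the control. Cdh2, or N-cadherin, had 315.1, 309.8 and 319.8 CPM in ENB_total, 86.58 and 144.5 CPM in ENB_ribo and 24.52 to 45.79 CPM in SVZ_ctr.

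Nuclear and neural long noncoding RNAs held 1.58 and 1.72% of counts in ENB_ribo, below the 1.75 to 2.64% of SVZ_ctr and above the 0.786 to 1.12% of ENB_total. Of 27 tested, 8 were higher and 8 lower than total mRNA, beside 18.4% and 11.8% of all genes tested. Only 1, Dlx6os1, was above the control, beside 0.590% of all genes, and the median difference from the control was -0.29. Meg3, a neuronal noncoding RNA, had 1063, 1094 and 1458 CPM in ENB_total, 4202 and 3029 CPM in ENB_ribo and 3533, 4774 and 5988 CPM in SVZ_ctr. Malat1, held in nuclear speckles, had 8517 and 9243 CPM in ENB_ribo, below the controls at 9859 to 13620 CPM and above total mRNA at 4355 to 6308 CPM, and passed neither test. Miat had 315.1, 430 and 317.2 CPM in ENB_total, 71.68 and 32.43 CPM in ENB_ribo and 64.75 to 97.7 CPM in SVZ_ctr.

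Of 30 genes induced early by activity or tissue dissociation, 10 were lower than total mRNA and 3 higher, beside 11.8% and 18.4% of all genes. Fos had 428.8, 387.4 and 508.3 CPM in ENB_total, 61.89 and 58.06 CPM in ENB_ribo and 17.15, 41.64 and 19.23 CPM in SVZ_ctr, with a log2 difference of -2.88 ± 0.75 from total mRNA. Ier2 had 225.7 to 273.4 CPM in ENB_total and 9.652 and 9.991 CPM in ENB_ribo. Only the sorted cells went through dissociation, and its part in these values was not tested. Btg1, an antiproliferative gene of this list, was the 1 member above the control.

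The difference between ribosome-bound and total mRNA was itself compared with that of the other stages in the same model. Against neural stem cells (NSC) of the same tissue, taken with the Tlx line, it differed for 767 genes (3.71%), being higher in ENB for 404 and lower for 363. Against late neuroblasts (LNB) of the olfactory bulb it differed for 1446 genes (6.99%), 1068 higher and 378 lower. The NSC immunoprecipitate shares a tissue with ENB, whereas LNB has the background of another tissue, and ENB_ribo and LNB_ribo replicates 1 and 2 carry the same animal numbers. The tissue background also differed between stages: oligodendrocyte markers held 2.15 and 2.21% of counts in ENB_ribo, 0.907 and 0.803% in NSC_ribo and 0.165 to 0.231% in LNB_ribo, and the part of this in the differences below was not tested.

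Ribosomal protein genes were lower in ENB than in NSC for 63 of 78, with a median difference of -1.79, and lower than in LNB for 17, with a median of -0.99. Their share of counts was 2.68 and 2.71% in NSC_ribo, near the 2.44 to 4.01% of SVZ_ctr, and 1.19 to 1.53% in LNB_ribo, near the 1.25 to 1.59% of the olfactory bulb control. ENB_ribo, at 1.00 and 1.06%, lay below all libraries of its tissue control, as did the libraries titled ribosome-bound from bulb neurons, at 1.03 and 1.12%, below theirs. Other labels of those neuron libraries give total mRNA and the sorting protocol, so what they hold is uncertain. Both NSC_ribo libraries share the second index of SVZ_ctr replicate 1 and of ENB_ribo replicate 2. Neuroblast genes were lower in ENB than in NSC for 12 of 38 and lower than in LNB for 13, with 0 higher in either. For Dlx2 the differences were -2.47 ± 0.58 from NSC (adjusted p = 0.02) and -2.49 ± 0.56 from LNB (adjusted p = 0.0079). Of the 75 genes below total mRNA and above the control, 17 were lower than in NSC and 19 lower than in LNB, counts that the choice of these genes for a low ENB difference favours.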

How the data were processed

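For each Ensembl gene the table of raw counts gives the number of reads, as deposited, and the tool that made it is not given in the sources used here. The authors also deposited expected counts, which are estimated and need not be whole, and TPM values, which are scaled by length and library. RSEM 1.2.21, Bowtie2 2.2.6 and the build GRCm38 are named in the submitters' processing notes. Libraries were made by Smart-seq2 from polyadenylated RNA, per the labels' protocols, so amplified reads are not independent molecules.

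Raw counts of all 27 libraries in 10 groups were fitted once in R 4.3.3 with edgeR 4.0.16 (TMM, filterByExpr, quasi-likelihood). P-values were adjusted by Benjamini-Hochberg over the 20683 genes tested of 45195, with a threshold of 0.05. Errors are standard errors of the log2 difference. Symbols were matched for 44548 genes. In the TPM table, 92 lines had no gene ID and were left out. In simulated counts with known changes, the fit called 0% of 2-fold and 51% of 4-fold changes between ribosome-bound and total mRNA. There ENB_ribo and ENB_total were set to the control mean, with 100 genes changed in ENB_ribo at each fold. That comparison gave 52 calls, against 6241 in the data. Fewer calls make the adjusted threshold stricter, so these shares do not describe the comparison with total mRNA in the data. Against the control the fit called 7% and 55%, so a gene that was not called can still differ. Values of some genes in the lists are not reported here. Alternatives were RLE and upper quartile scaling, no filter, DESeq2 1.42.0, other sets of libraries, expected counts rounded to whole numbers, a replicate block, and each library left out in turn. The within-index comparison, the sets below both references and above the control only, and the length measure were added after the data had been seen.

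Net shares used, for each ENB_ribo replicate, the median ratio of 58 markers of untagged cells with at least 1 CPM in the control. Lengths used genes with at least 20 expected counts and 1 TPM. Named genes were those with the largest differences from total mRNA among the called (8 each for genes above both references and for genes below total mRNA and above the control, 4 each for the other calls), with at least 10 CPM, no overlap of the libraries and a gene name that is no clone name or pseudogene. Up to 4 members of each list with the lowest adjusted p and a panel of markers were added. Other genes were named after their values were seen. The members and the 30 lists were chosen with earlier results of these data known. Replicate numbers of ENB_ribo, ENB_total and SVZ_ctr do not mark shared animals, and correlations of deviations between same-numbered libraries were -0.048 to 0.032.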

Additional observations from a re-analysis of the deposited data

Results flagged for a closer look

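In 22 results, the difference between ribosome-bound and total mRNA in ENB departed from that in NSC or LNB by the interaction test. Values are log2 differences, ENB minus the other stage, with standard errors and p-values adjusted over all genes tested, by edgeR. Higher in ENB than in LNB were Sgk1 (3.2 ± 0.57, adjusted p = 0.0016), Tsc22d3 (1.56 ± 0.34, 0.0069), Gfap (5.32 ± 1, 0.0026) and Meg3 (2.43 ± 0.55, 0.0077). Gfap and Meg3 were at the level of the control in ENB_ribo. LNB comes from another tissue, and the part of its background was not tested.

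Lower in ENB than in LNB were Dlx2 (-2.49 ± 0.56, adjusted p = 0.0079), Tubb3 (-2.03 ± 0.54, 0.023), Dcx (-1.61 ± 0.47, 0.038), Fos (-3.66 ± 0.94, 0.02), Atf4 (-1.25 ± 0.32, 0.018), Eef1a1 (-1.15 ± 0.29, 0.018), Rplp0 (-0.99 ± 0.3, 0.044) and Rpl22 (-1.33 ± 0.4, 0.043). Lower in ENB than in NSC were Dlx2 (-2.47 ± 0.58, 0.02), Cd24a (-2.81 ± 0.61, 0.013), Dlx6os1 (-2.09 ± 0.53, 0.03), Mfap2 (-2.17 ± 0.58, 0.038), Hmgb2 (-1.97 ± 0.4, 0.0093), Igfbpl1 (-2.27 ± 0.64, 0.049), Ddah2 (-2.19 ± 0.53, 0.022), Tubb3 (-2.31 ± 0.56, 0.024), Eef1a1 (-1.58 ± 0.31, 0.006) and Rplp0 (-1.4 ± 0.31, 0.015). Dlx2, Tubb3, Eef1a1 and Rplp0 stand in both comparisons, which share the ENB libraries. Dlx2, Cd24a, Dlx6os1, Mfap2, Hmgb2, Igfbpl1 and Ddah2 were among the genes named for a low ENB difference from total mRNA. Sgk1 and Tsc22d3 were named for a high one. The interaction uses the same ENB difference, so this choice favours the directions seen for these genes.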

How the results depend on the processing

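Across the alternatives no called value of a named gene changed sign, 2143 values of named genes kept their side of the threshold and 148 lost it. Of the list medians, 492 stayed within their spread and 105 moved, most often with the length trend subtracted, and of the counts of called genes 171 stayed within 1.5 times and 55 moved. With each library left out in turn, genes called against total mRNA numbered 3618 to 6196 (6241 with all), and genes called against the control 0 to 219 (226 with all). The ranges were 0 to 4 for genes above both references, 2704 to 3972 for genes above total mRNA only, 0 to 70 for genes below total mRNA and above the control, and 882 to 2254 for genes below total mRNA and not above the control. The interactions gave 157 to 649 genes against NSC and 673 to 1278 against LNB. The lowest counts came without ENB_ribo replicate 1 or 2 (for genes above both references, also without SVZ_ctr replicate 2), and ENB_ribo then has 1 library that is assumed to vary like the others. DESeq2 called 495 genes against the control, 10 above both references and 121 below total mRNA and above the control. For ENB against NSC, difference of ribosome-bound minus total, DESeq2 called 1767 genes, and for ENB against LNB, difference of ribosome-bound minus total, 2480. A fit of only the 8 libraries gave 128 genes against the control and 1 above both references, upper quartile scaling gave 2 above both, and no filter on low counts gave 1464 genes below total mRNA and not above the control. The cause was not tested. The replicate block, whose numbers do not pair these libraries, gave 5931 calls for ENB ribosome-bound against total mRNA and 186 against the control, and kept 61 of the 75 genes below total mRNA and above the control and 72 of the 80 below both references. Under RLE scaling 67.6% of calls were higher than total mRNA, against 60.9% with TMM. At an unadjusted p under 0.05, 1995 genes differed from the control, and 226 did after adjustment.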
